A study of Mus musculus with 6 samples.

Results

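The genes described here encode the machinery that loads peptides onto major histocompatibility complex (MHC) class I molecules, together with Cd274, which encodes the immune checkpoint ligand PD-L1. They are 10 listed genes of the 28418 in the deposited tables: H2-K1, H2-D1, B2m, Tap1, Tap2, Tapbp, Psmb8, Psmb9, Nlrc5 and Cd274. They were taken by symbol from a list that uses no measured value as a criterion but was drawn up with earlier results of these data known. Poly(A) RNA was sequenced from 4T1, a mouse mammary carcinoma line that stands in for triple-negative breast cancer, in 3 libraries from cells kept at 0 nM and 3 from cells kept at 100 nM of perfluorooctane sulfonate (PFOS), a surfactant that persists in the environment, each for 35 passages. No other treatment or genotype is given for either group, and the labels do not state whether replicate libraries derive from separate cultures. The p-values below therefore reflect the spread between libraries, which may be technical. The question put by the design is how expression differs after chronic exposure.

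MHC class I molecules show peptides from inside the cell to CD8+ T cells. The proteasome cuts proteins into peptides, the TAP transporter carries them into the endoplasmic reticulum, and tapasin holds the class I heavy chain and its light chain beta-2 microglobulin near TAP until a peptide fits. Interferon-gamma induces nearly every step through IRF1 and the transactivator NLRC5, and it induces PD-L1, which restrains T cells through the receptor PD-1. Tumour cells often express this machinery at a low level that interferon can raise.

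Upstream sequence was examined because NLRC5 acts with factors bound at a conserved module of class I promoters, whose X2 box resembles TGACG and whose Y box reads ATTGG on the coding strand. RefSeq windows (GRCm38.p6) were found by symbol for 8 of the 10 genes, and the 250 bases before each start were searched on both strands. TGACG was present in 5 of these 8 windows and in 17.8% of the 32851 windows of all genes. CCAAT, the Y box on the other strand, was present in 6 and in 33.8% of all. The windows of Psmb9 and Tap1 overlap and share their TGACG and CCAAT matches, so the same bases are counted for both genes. In 3 genes, H2-K1, H2-D1 and B2m, TGACG and ATTGG lay in the same order with exactly 20 bases between them, an arrangement chosen for counting after it was seen and found in 0.0913% of all windows. Of 13 other class I genes with a window, 1, H2-M3, held it. The 3 stretches of 30 bases are shown because H2-K1, H2-D1 and B2m share this arrangement, with both boxes in capitals. They lie at chr17:34000359-34000388 (minus strand) for H2-K1, chr17:35262993-35263022 (plus strand) for H2-D1 and chr2:122147609-122147638 (plus strand) for B2m.
H2-K1: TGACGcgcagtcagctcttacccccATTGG
H2-D1: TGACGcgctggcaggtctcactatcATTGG
B2m: TGACGacctccggatctgagtccggATTGG

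An NF-kB consensus lay further from the RefSeq start in the same 3 genes, against 3.9% of all windows. Upstream here means before the RefSeq start. In GENCODE M21 all of the last 200 bases before the RefSeq start lie in exons, of the same gene or an overlapping one, for H2-D1, Tapbp, Psmb9, Tap1 and Psmb8. The sites are shown for both heavy chain genes, at chr17:34000438-34000467 (minus strand) for H2-K1 and chr17:35262914-35262943 (plus strand) for H2-D1, with the consensus in capitals. The capitals hold overlapping matches on both strands.
H2-K1: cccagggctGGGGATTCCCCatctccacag
H2-D1: cccagggctGGGGATTCCCCatctcctcag

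The core of the interferon-stimulated response element, spelled GAAA, any 2 bases and GAAA, was present in 1 of the 8 windows, that of B2m, and in 2.98% of all windows. The longer upstream stretches of B2m (chr2:122147487-122147685, plus strand) and H2-K1 (chr17:34000348-34000547, minus strand) show how the matches are spaced, with every match in capitals. Psmb9 and Tap1 are transcribed away from each other from RefSeq starts 226 bases apart. Matches describe letters in these windows and do not show that a factor was bound.
B2m: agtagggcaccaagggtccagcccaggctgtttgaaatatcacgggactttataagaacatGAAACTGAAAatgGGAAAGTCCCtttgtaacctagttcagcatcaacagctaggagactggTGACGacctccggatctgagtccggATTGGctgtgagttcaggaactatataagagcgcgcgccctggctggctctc
H2-K1: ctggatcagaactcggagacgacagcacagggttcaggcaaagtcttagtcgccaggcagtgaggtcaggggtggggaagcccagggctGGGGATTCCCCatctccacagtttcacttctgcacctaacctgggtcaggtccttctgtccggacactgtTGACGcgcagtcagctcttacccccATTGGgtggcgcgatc

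Levels are in FPKM, fragments per length of transcript and per total of mapped fragments, so levels can be set side by side between genes. Library sums lay between 306716 and 309381 FPKM. Replicate 3 at 100 nM stood apart from the other 5 libraries in interferon-stimulated genes and in T and natural killer cell markers, given below. Differences are therefore given with and without it. A gene was tested if its mean over the 6 libraries was at least 1 FPKM, which held for 11741 genes and for all 10 genes here, each of which also had a mean above 1 FPKM at 0 nM alone. Differences are 100 nM minus 0 nM on the log2(FPKM + 1) scale, where folds of weakly expressed genes appear smaller than they are, and were tested with limma (two-sided, Benjamini-Hochberg adjustment over all genes tested).

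None of the 10 genes changed in the limma test (0 at an adjusted p under 0.05, 1 at an unadjusted p under 0.05), where 4.15% of all genes tested passed the adjusted threshold and 20.7% the unadjusted one. Without replicate 3 at 100 nM it was again 0 of 10 (1 unadjusted), against 2.46% and 19.5% of all genes tested. Transcripts of the class I pathway and of Cd274 were present in every library of both groups. All 10 were highest in the same library, replicate 3 at 100 nM, which was the highest library for 19.1% of all genes tested. Without that library 6 of the 10 had a higher mean log2 value at 100 nM, against 52.4% of all genes tested, and with it 9 of 10, against 52.6%. The median difference over the 10 genes was 0.14 with it and 0.03 without it, beside 0.005 over all genes tested in both cases. Those fits keep replicate 3 at 0 nM, the highest 0 nM library for 9 of the 10. Without replicate 3 of both groups, differences were 0.18 for H2-K1, 0.13 for Psmb9, 0.10 for Tapbp and 0.076 for Tap2. They were 0.070 for H2-D1, 0.069 for Tap1 and 0.040 for Cd274. B2m (-0.018), Psmb8 (-0.069) and Nlrc5 (-0.085) were below 0, and 0 of the 10 genes were called.

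**Figure D1:**
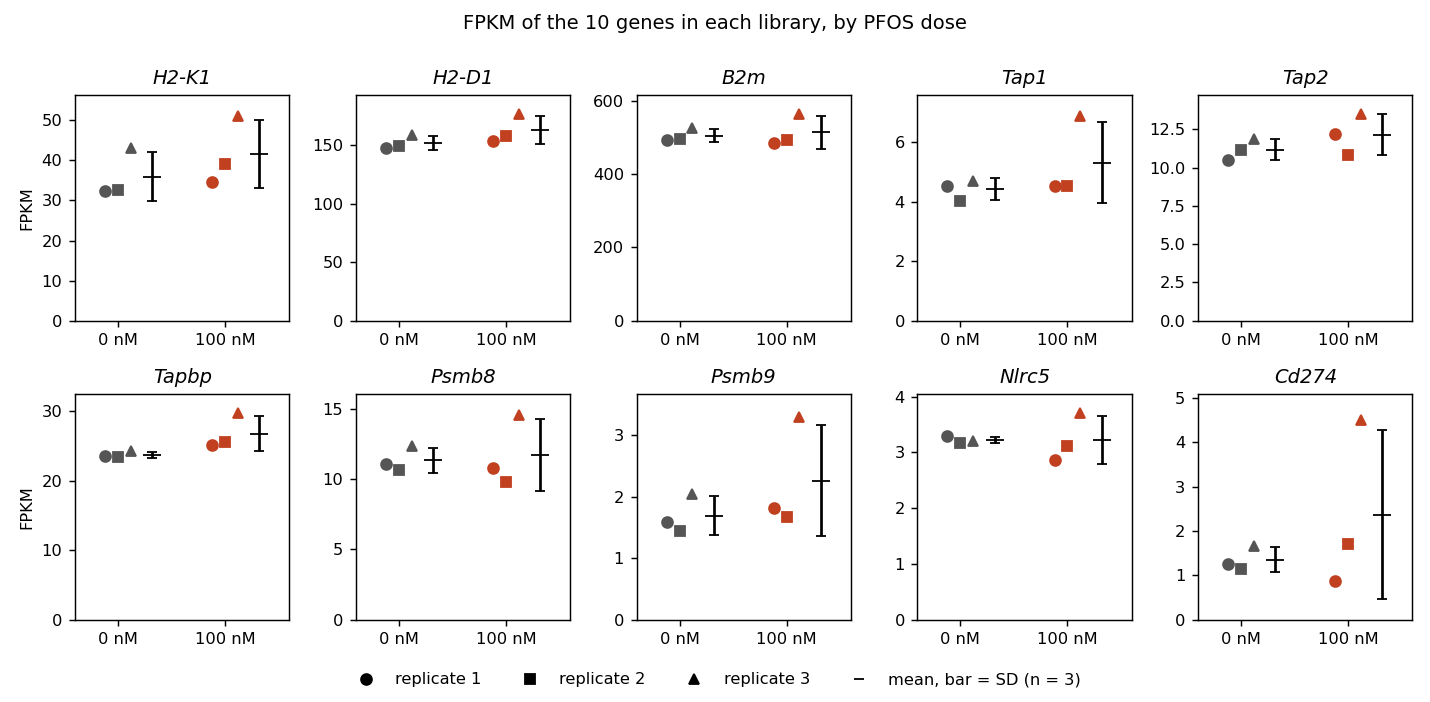
FPKM of each gene (y axis, linear from 0, scaled per panel) in the 3 libraries at 0 nM (grey) and the 3 at 100 nM (red); marker shapes give the replicate, and the horizontal mark with its bar gives the mean and SD of a group (n = 3). Replicate 3 at 100 nM is the highest point in every panel, while replicates 1 and 2 at 100 nM lie close to the 0 nM libraries.

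H2-K1 and H2-D1 encode the classical class I heavy chains. H2-K1 (ENSMUSG00000061232, chromosome 17, 33996017 to 34000347) stood at 32.29, 32.53 and 43.08 FPKM in replicates 1 to 3 at 0 nM and at 34.67, 39.06 and 51.05 FPKM at 100 nM. Replicate 3 was the high library of both groups, and the groups overlapped. Means were 36.0 ± 6.16 FPKM (SD, n = 3) and 41.6 ± 8.48 FPKM (SD, n = 3), with a difference of 0.20 ± 0.16 (SE) on the log2(FPKM + 1) scale (limma adjusted p = 0.55), and of 0.04 without replicate 3 at 100 nM. The confidence interval of the difference over the 6 libraries, -0.19 to 0.59, was wide enough to hold both a small decrease and a 1.5-fold increase on that scale.

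H2-D1 (ENSMUSG00000073411, chromosome 17, 35262730 to 35267499) was the more abundant heavy chain, at 147.60, 149.51 and 158.39 FPKM at 0 nM and 154.07, 158.01 and 177.10 FPKM at 100 nM. Its groups overlapped only in that replicate 3 at 0 nM lay above replicates 1 and 2 at 100 nM. The difference was 0.10 ± 0.056 (SE; limma adjusted p = 0.37), and 0.04 without replicate 3 at 100 nM. Both heavy chain genes share sequence with relatives: of the 31-base words in their transcripts, 22.8% of those of H2-K1 and 26.9% of those of H2-D1 also occur in transcripts of other genes, most often in each other. The 4T1 line comes from a BALB/c mouse, whose class I alleles differ from those of the C57BL/6J reference, and how reads were divided among these genes was not tested, so their levels are uncertain.

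B2m (ENSMUSG00000060802, chromosome 2, 122147686 to 122153083), the light chain common to all class I molecules, had the highest level of the 10 genes and shares none of its words with other transcripts. It stood at 493.49, 496.61 and 525.17 FPKM at 0 nM and at 484.30, 493.21 and 565.88 FPKM at 100 nM. Replicates 1 and 2 at 100 nM lay below the 0 nM libraries, and replicate 3 lay above all of them. The difference was 0.02 ± 0.061 (SE; limma adjusted p = 0.868), and -0.05 without replicate 3 at 100 nM. H2-D1 and B2m kept a narrow proportion: the FPKM of H2-D1 was 29.9% to 30.2% of that of B2m in the 0 nM libraries and 31.3% to 32.0% in the 100 nM libraries, replicate 3 included. H2-K1 moved more freely against B2m, from 6.54% to 8.20% at 0 nM and from 7.16% to 9.02% at 100 nM, with replicate 3 highest in each group. These proportions are given as a description and were not tested.

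Tap1 and Tap2 encode the subunits of the peptide transporter. Tap1 (ENSMUSG00000037321, chromosome 17, 34187553 to 34197225) was at 4.54, 4.01 and 4.71 FPKM at 0 nM and at 4.53, 4.52 and 6.88 FPKM at 100 nM. Replicates 1 and 2 at 100 nM lay within the 0 nM range, and replicate 3 was 1.46 times the highest of the other 5 libraries. Its difference was 0.20 ± 0.14 (SE; limma adjusted p = 0.492), and 0.03 without that library. Tap2 (ENSMUSG00000024339, chromosome 17, 34203527 to 34216321) was higher than Tap1 in every library, at 10.51, 11.16 and 11.85 FPKM at 0 nM and 12.18, 10.80 and 13.49 FPKM at 100 nM. Its groups overlapped, and the difference was 0.11 ± 0.079 (SE; limma adjusted p = 0.499), and 0.04 without replicate 3 at 100 nM.

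Tapbp encodes tapasin, the chaperone that bridges TAP and the heavy chain, and was the 1 gene of the 10 whose groups did not overlap, as was the case in the higher direction for 13.7% of all genes tested. Tapbp (ENSMUSG00000024308, chromosome 17, 33915899 to 33926197) stood at 23.50, 23.41 and 24.19 FPKM at 0 nM and at 25.08, 25.49 and 29.68 FPKM at 100 nM. Every 100 nM library lay above every 0 nM library, replicates 1 and 2 by little. No other of the 10 genes had both replicates 1 and 2 at 100 nM above all 0 nM libraries, which held for 19.7% of all genes tested. The difference was 0.16 ± 0.063 (SE; unadjusted p = 0.0363, limma adjusted p = 0.206). Without replicate 3 at 100 nM it was 0.09, with an interval of 0.02 to 0.16 and a limma adjusted p of 0.165. Tapbp overlaps Zbtb22 on the same strand by 3422 bases and an antisense gene, Gm19412, and 26.9% of its words also occur elsewhere in the transcriptome, so part of its value is uncertain.

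Psmb8 and Psmb9 encode catalytic subunits that replace constitutive ones, Psmb5 and Psmb6, when the proteasome is assembled as an immunoproteasome. Psmb8 (ENSMUSG00000024338, chromosome 17, 34197721 to 34201454) was at 11.05, 10.61 and 12.32 FPKM at 0 nM and at 10.81, 9.76 and 14.57 FPKM at 100 nM. The lowest and the highest library of the 6 were both at 100 nM. Its difference was 0.03 ± 0.14 (SE; limma adjusted p = 0.932) and turned to -0.13 without replicate 3 at 100 nM. Psmb9 (ENSMUSG00000096727, chromosome 17, 34181987 to 34187764) was low, at 1.59, 1.44 and 2.05 FPKM at 0 nM and 1.82, 1.67 and 3.30 FPKM at 100 nM. Replicate 3 was the high library of both groups, and at 100 nM it was 1.61 times the highest of the other 5. The difference was 0.25 ± 0.19 (SE; limma adjusted p = 0.518), and 0.03 without that library.

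Set against its constitutive counterpart, each immunoproteasome subunit made up a different proportion. Psmb9 was at 2.57% to 3.76% of the FPKM of Psmb6 at 0 nM and at 3.29%, 2.90% and 5.55% in replicates 1 to 3 at 100 nM. Psmb8 was at 13.0% to 15.6% of Psmb5 at 0 nM and at 13.6%, 11.5% and 16.9% at 100 nM. Psmb10, the third inducible subunit, was at 49.4% to 58.4% of Psmb7 at 0 nM and at 54.7%, 54.5% and 65.8% at 100 nM. All 3 proportions were highest in replicate 3 at 100 nM and next highest in replicate 3 at 0 nM, and constitutive subunits were the more abundant form in every library.

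**Figure D2:**
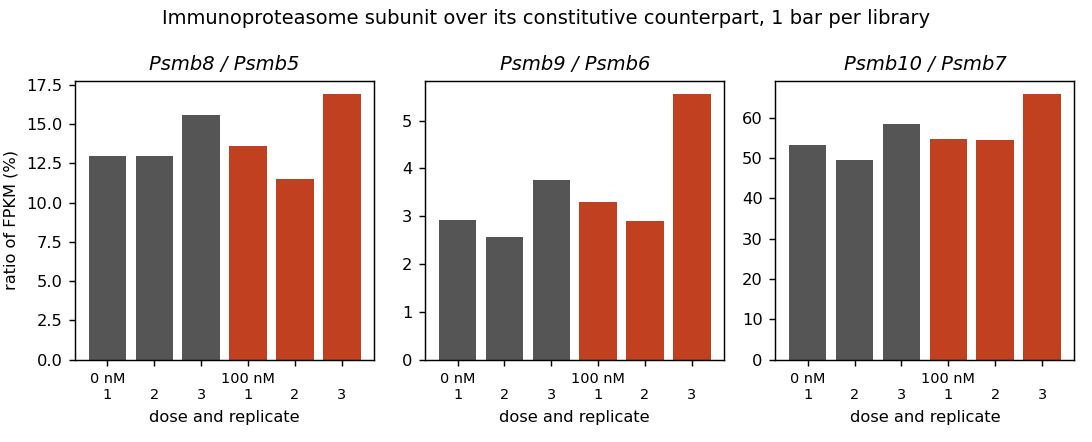
FPKM of the immunoproteasome subunits Psmb8, Psmb9 and Psmb10 as a percentage of the constitutive subunits Psmb5, Psmb6 and Psmb7 (y axis, from 0), with 1 bar for each library at 0 nM (grey) and 100 nM (red). The tallest bar is replicate 3 at 100 nM in each panel, at 16.9%, 5.55% and 65.8%.

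Nlrc5 (ENSMUSG00000074151, chromosome 8, 94434356 to 94527272), the class I transactivator, stood at 3.29, 3.17 and 3.21 FPKM at 0 nM and at 2.87, 3.11 and 3.70 FPKM at 100 nM. The 0 nM libraries lay close together, with replicates 1 and 2 at 100 nM below them and replicate 3 above. Means were 3.22 ± 0.0611 FPKM (SD, n = 3) and 3.23 ± 0.427 FPKM (SD, n = 3), the difference was -0.004 ± 0.075 (SE; limma adjusted p = 0.987), and its interval was -0.18 to 0.18. Without replicate 3 at 100 nM the difference was -0.08.

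Cd274 (ENSMUSG00000016496, chromosome 19, 29367455 to 29388095) had the lowest level of the 10 genes at 0 nM and, relative to its mean, the widest spread of them at 100 nM. It stood at 1.25, 1.14 and 1.67 FPKM at 0 nM and at 0.87, 1.72 and 4.51 FPKM at 100 nM. The lowest and the highest of the 6 libraries were both at 100 nM, and replicate 3 was 2.62 times the highest of the other 5. Means were 1.35 ± 0.28 FPKM (SD, n = 3) and 2.37 ± 1.9 FPKM (SD, n = 3), so the SD at 100 nM was close to the mean. The difference was 0.37 ± 0.37 (SE; limma adjusted p = 0.622) with an interval of -0.51 to 1.26, and it was -0.05 with an interval of -0.51 to 0.40 without replicate 3 at 100 nM. An antisense gene, AC119228.1, overlaps Cd274 at a mean of 0.13 FPKM, and 14.6% of the words of Cd274 are shared with other transcripts.

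**Figure D3:**
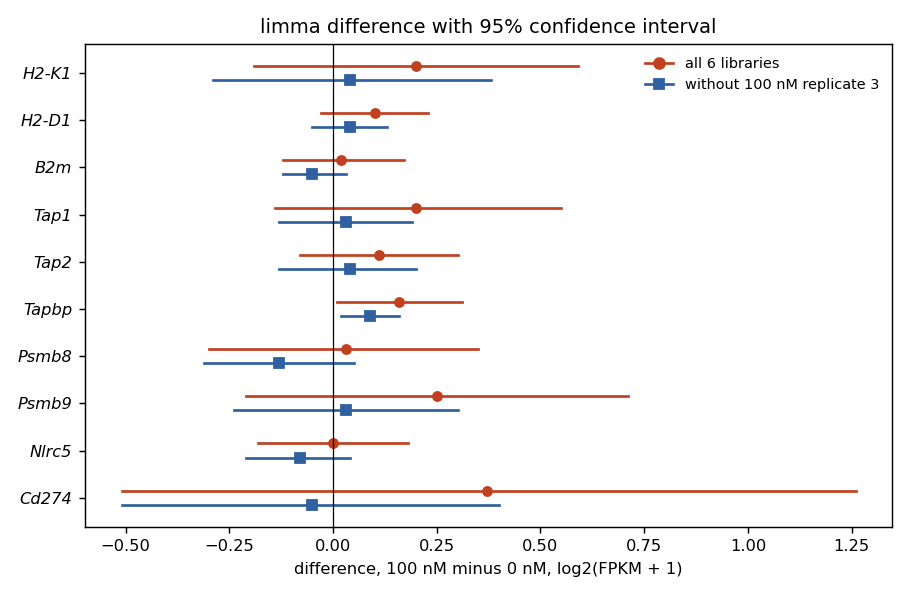
Difference of each gene, 100 nM minus 0 nM on the log2(FPKM + 1) scale (x axis), with its 95% confidence interval from limma over all 6 libraries (red circles) and without replicate 3 at 100 nM (blue squares). Only the intervals of Tapbp lie to the right of 0 in both fits, and the points of B2m, Psmb8 and Cd274 change side when that library is left out.

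Levels at 0 nM ran from B2m (505 FPKM) through H2-D1 (152), H2-K1 (36.0), Tapbp (23.7), Psmb8 (11.3), Tap2 (11.2), Tap1 (4.42), Nlrc5 (3.22) and Psmb9 (1.69) to Cd274 (1.35). The 0 nM libraries of Psmb8 and Tap2 overlapped, as did those of Psmb9 and Cd274, and other neighbours in this order did not. Within the 0 nM group, replicate 3 was the highest library for 9 of the 10 genes, Nlrc5 being the exception, against 35.9% of all genes tested. These genes were thus high together in 1 untreated library as well, by less than in replicate 3 at 100 nM.

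Most other class I heavy chain genes measured were highest in the same library, while none passed the test. Of 17 listed, 11 were measured (a mean of at least 1 FPKM). Of these, 0 rose and 0 fell by limma (2 at an unadjusted p under 0.05), beside 4.15% and 20.7% of all genes tested. The median difference was 0.11, and 0.02 without replicate 3 at 100 nM. That library was the highest for 7 of the 11, beside 19.1% of all genes tested, and not for H2-M3, Cd1d1, Mr1 and Fcgrt. The 2 at an unadjusted p under 0.05, named after their values were seen, went opposite ways. H2-M3 was lower, at 10.76 to 11.21 FPKM at 0 nM and 9.06 to 10.24 FPKM at 100 nM (limma unadjusted p = 0.007, adjusted p = 0.0892). H2-T23 was higher, at 7.52 to 8.95 FPKM and 8.98 to 11.96 FPKM (limma unadjusted p = 0.0194, adjusted p = 0.148). Its difference was 0.32, and 0.22 without replicate 3 at 100 nM. Neither gene overlapped between groups, as held for 26.9% of all genes tested in either direction. H2-Q4, the most abundant of the list, was at 25.96 to 27.65 FPKM at 0 nM and at 26.77, 28.37 and 34.61 FPKM at 100 nM. H2-T10, with the largest gap between replicate 3 at 100 nM and the other libraries, was at 2.13 FPKM there and at 1.07 to 1.29 FPKM elsewhere. Of the words of H2-T10 64.2% are shared with other transcripts, and of those of H2-Q4 53.0%, so their values are uncertain.

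Peptide supply and folding genes differed little between libraries. All 11 were measured, and 0 rose and 0 fell by limma (0 at an unadjusted p under 0.05), beside 4.15% and 20.7% of all genes tested. The median difference was 0.02, and 0.01 without replicate 3 at 100 nM. That library was the highest for 5 of 11, beside 19.1% of all genes tested. Calr, the lectin chaperone of class I assembly and the most abundant of the list, ranged from 238.44 to 244.15 FPKM over the 6 libraries. Psmb10 had the largest gap, at 26.43 FPKM in replicate 3 at 100 nM and 21.68 to 23.81 FPKM in the others. The summed level of the list was 813 to 822 FPKM in every library.

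Among 21 measured regulators and interferon-gamma signalling genes, 0 rose and 0 fell by limma (1 at an unadjusted p under 0.05). The shares of all genes tested were 4.15% and 20.7%. The median difference of the 21 was 0.01. The mean log2 value was higher at 100 nM for 12 of them, and for 9 without replicate 3 at 100 nM. Rela, an NF-kB subunit and the most abundant of the list, ranged from 22.11 to 24.02 FPKM. The transcription factor gene Irf1, named after its values were seen, was at 11.49 to 13.24 FPKM in 5 libraries and at 16.51 FPKM in replicate 3 at 100 nM. The 1 gene at an unadjusted p under 0.05 was Ptpn2, likewise named after its values were seen. It was lower, at 13.18 to 14.26 FPKM at 0 nM and 11.82 to 12.30 FPKM at 100 nM (limma unadjusted p = 0.00454, adjusted p = 0.0703). Groups did not overlap for 2 of the 21, both lower, beside 26.9% of all genes tested in either direction.

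Of 10 measured genes in the list of checkpoint and natural killer (NK) cell ligands, 0 rose and 1 fell by limma (3 at an unadjusted p under 0.05). The shares of all genes tested were 4.15% in either direction and 20.7% unadjusted. The median difference of the 10 was 0.02, and 0.01 without replicate 3 at 100 nM. The gene that fell was Pvr, which encodes a ligand of the receptors TIGIT and DNAM-1. It was at 17.26, 17.48 and 18.04 FPKM at 0 nM and at 15.12, 16.07 and 15.67 FPKM at 100 nM, with no overlap, and its limma adjusted p was 0.046. That call was lost without any 1 of the 6 libraries (adjusted p 0.0925 to 0.132, with the difference still below 0). Vsir, which encodes the checkpoint protein VISTA, had the largest gap in replicate 3 at 100 nM, at 3.08 FPKM against 1.82 to 2.59 FPKM in the others. Cmtm4, a stabiliser of PD-L1 and the most abundant of the list, ranged from 28.12 to 29.33 FPKM. Of the 10 genes, 3 were higher and 1 lower without overlap, beside 26.9% of all genes tested in either direction. Cmtm6 and Lgals9, named after their values were seen, were among those higher. Cmtm6 was at 19.32 to 19.88 FPKM at 0 nM and 20.95 to 22.14 FPKM at 100 nM (limma unadjusted p = 0.0063, adjusted p = 0.0842). Lgals9 was at 12.42 to 13.16 FPKM and 14.16 to 15.88 FPKM (0.00635 and 0.0846). Pdcd1lg2, the neighbour of Cd274 that encodes the other PD-1 ligand, was at 0.10 FPKM or less in every library.

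Class II genes were highest in another 100 nM library. Of 7 listed, 5 were measured, and 0 rose and 0 fell by limma (1 at an unadjusted p under 0.05), beside 4.15% and 20.7% of all genes tested. The median difference was 0.34, and 0.58 without replicate 3 at 100 nM. That library was the highest for 1 of the 5, H2-DMa, beside 19.1% of all genes tested. Replicate 3 was the highest of the 0 nM libraries for all 5, beside 35.9%. Cd74, the invariant chain and the most abundant, was at 37.57, 35.61 and 61.41 FPKM at 0 nM and at 45.41, 80.33 and 46.79 FPKM at 100 nM. The summed list was highest in replicate 2 at 100 nM (125 FPKM), next in replicate 3 at 0 nM (94.9 FPKM), and at 63.3 FPKM in replicate 3 at 100 nM. The summed class I and class II lists shared their highest library at 0 nM, replicate 3, but not at 100 nM, and this difference was not tested.

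**Figure D4:**
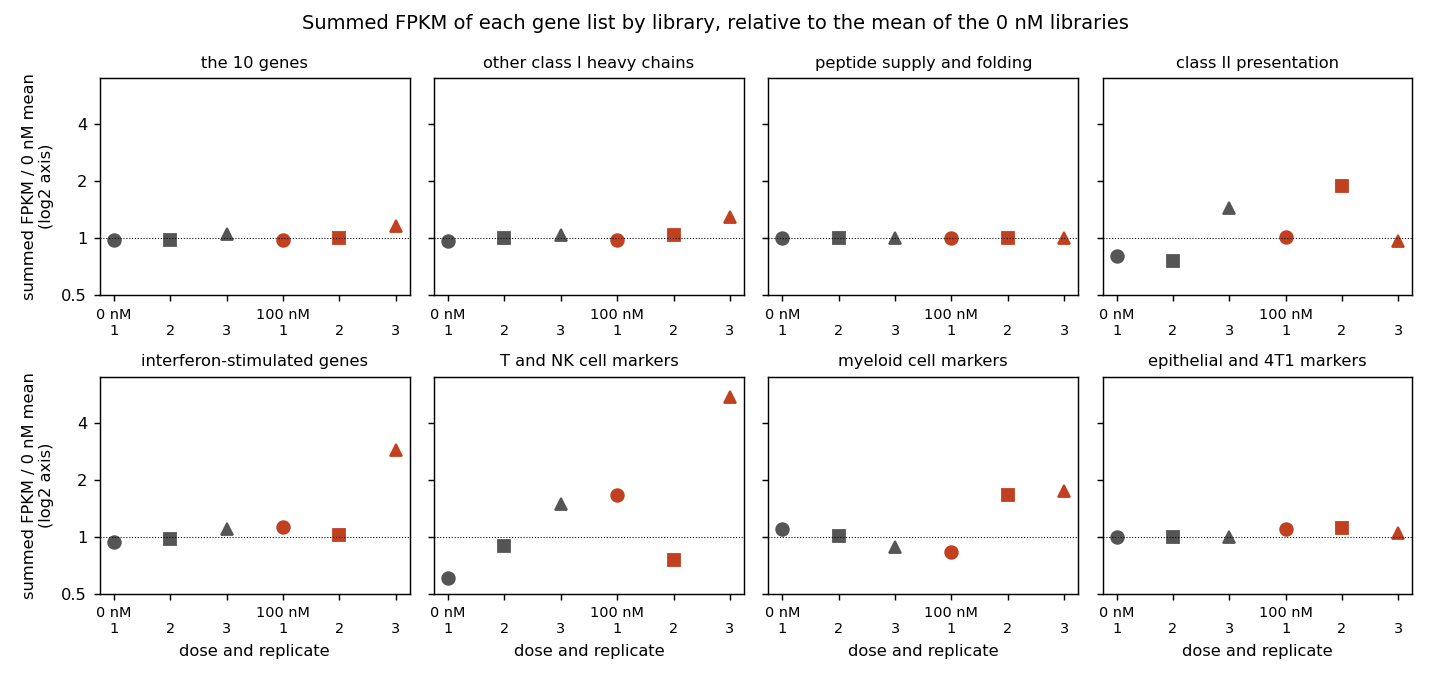
Summed FPKM of 8 gene lists in each library (x axis: dose and replicate; grey, 0 nM; red, 100 nM), divided by the mean of the 3 libraries at 0 nM (y axis, log2-spaced; dotted line at 1). The class I lists are slightly higher, and the interferon-stimulated and T and NK cell lists far higher, in replicate 3 at 100 nM, whereas class II genes are highest in replicate 2 at 100 nM.

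Interferon-stimulated genes, T and NK cell markers and part of the other immune cell markers were highest in the same library as the class I genes. All 20 interferon-stimulated genes listed were highest in replicate 3 at 100 nM, as were all 15 measured, beside 19.1% of all genes tested. Of the 15, 0 rose and 0 fell by limma (0 at an unadjusted p under 0.05), beside 4.15% and 20.7% of all genes tested. The median difference was 0.37, and 0.04 without that library. The summed level of the 20 was 229 FPKM in that library and 74.1 to 89.7 FPKM in the other 5. Bst2, the tetherin gene and the most abundant of them, stood at 67.93 FPKM against 40.40 to 48.67 FPKM, and Rsad2, the viperin gene with the largest gap, at 19.12 FPKM against 0.40 to 2.48 FPKM.

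T and NK cell markers were all highest there too, 17 of the 17 in the tables, beside 19.1% of all genes tested. Only 4 of the 17 were measured (a mean of at least 1 FPKM). The summed level of the 17 was 184 FPKM against 20.4 to 56.2 FPKM. Most of that sum was Ccl5, a chemokine gene that was expressed in every library (19.32 to 54.98 FPKM in the other 5 and 145.32 FPKM in replicate 3 at 100 nM). Of the 17, 8 were listed at 0 in all the other 5 libraries: Cd3e, Cd3g, Cd8b1, Trbc1, Gzma, Gzmc, Nkg7 and Ifng. Ifng, interferon-gamma itself, was at 0.41 FPKM in replicate 3 at 100 nM. Gzmb, the granzyme gene with the largest gap, was at 14.94 FPKM there and at 0.05 FPKM or less elsewhere.

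Myeloid markers were highest in replicate 3 at 100 nM for 8 of 14, and for 7 of the 12 measured, beside 19.1% of all genes tested. Their summed level was 342 FPKM there against 164 to 327 FPKM. The upper end of that range was replicate 2 at 100 nM, where Lyz2, a lysozyme gene, was at 240.43 FPKM. B cell and pan-leukocyte markers were highest in replicate 3 at 100 nM for 5 of 7 (34.5 FPKM against 7.91 to 15.5 FPKM), and for all 3 measured. The B cell gene Ms4a1 was listed at 0 in all 6 libraries. Ptprc, the pan-leukocyte gene CD45, was at 1.31 FPKM in replicate 3 at 100 nM against 0.06 to 0.23 FPKM. Fibroblast and endothelial markers were highest there for 4 of 10 (9.36 FPKM against 5.56 to 6.53 FPKM), and for 1 of the 2 measured. In that sum Dcn, named after its values were seen, was at 2.26 FPKM there and at 0.05 FPKM or less in the other 5 libraries. Epithelial and 4T1 markers were highest there for 0 of 8 and were present in all libraries at a summed 774 to 865 FPKM, so the labelled cell type was seen in each. Of these 8, 3 rose by limma, Cdh1, Krt7 and Krt19, and 0 fell, where 1.69% of all genes tested rose. Without replicate 3 at 100 nM 5 rose and 0 fell, where 2.46% of all genes tested changed in either direction. The Krt19 call was lost in 5 of 6 fits that left out 1 library (adjusted p up to 0.0749), replicate 3 at 100 nM being the exception. In bulk RNA more cells of a type and more RNA per cell cannot be told apart. Whether cells of other types were present, and whether they added to the class I and Cd274 values, was not tested.

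Class I genes on chromosome 17 lie among genes outside the class I pathway, which allows a look at their neighbours. The interval from Tapbp to H2-D1, 1.35 Mb long, holds 7 of the 10 genes, and Psmb9, Tap1, Psmb8 and Tap2 fill 34.3 kb of it in that order. Replicate 3 at 100 nM lay above the mean of the other 5 libraries by a median of 0.39 on the log2(FPKM + 1) scale for the 7 genes and by 0.04 for the 46 tested genes of the interval outside all lists. It was the highest library for 17 of these 46 (37.0%), beside 19.1% of all genes tested. None of the 46 rose at 100 nM by limma, and 1 fell, where 4.15% of all genes tested changed in either direction. It was Clic1 (limma adjusted p = 0.0499), a chloride channel gene named after its value was seen.

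**Figure D5:**
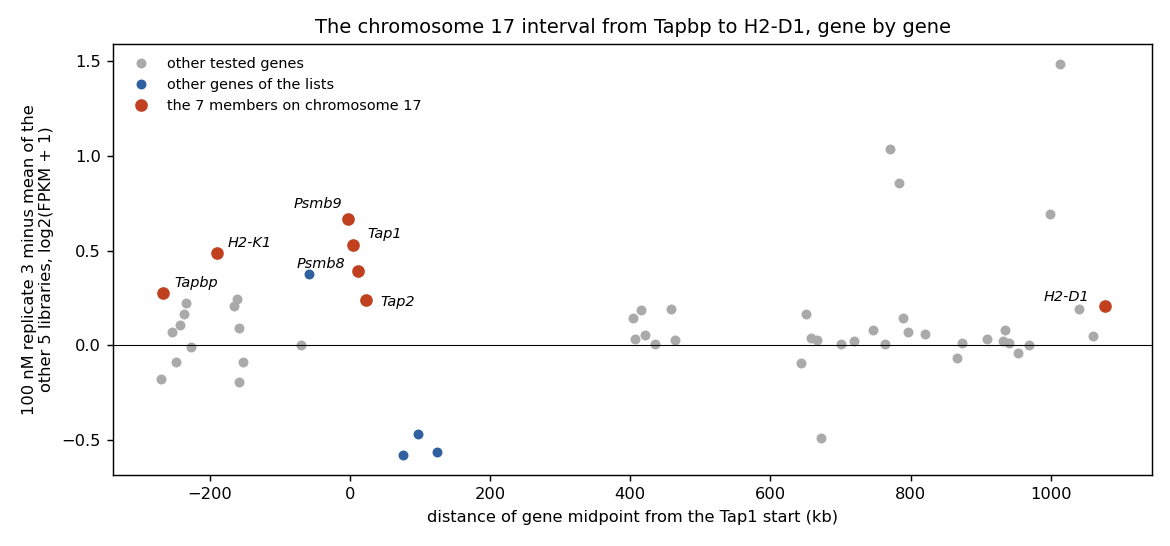
Replicate 3 at 100 nM minus the mean of the other 5 libraries, log2(FPKM + 1) (y axis), for each tested gene between Tapbp and H2-D1, by distance of its midpoint from the Tap1 start in kb (x axis). The 7 genes of the class I pathway (red) lie above 0, most other genes (grey) lie near 0, and of the 4 class II genes of the lists (blue) 3 lie below it and 1, H2-DMa, lies above it.

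The genes most like the 10 were sought among 9866 protein-coding genes outside all lists, by the root-mean-square difference between centred log2(FPKM + 1) profiles over the 6 libraries. The mean profile of the 10 genes was -0.11, -0.14 and 0.03 at 0 nM and -0.10, -0.05 and 0.37 at 100 nM. Nearest to it were Dhx58 (0.035), which encodes the RNA sensor LGP2, Adam8 (0.036), a sheddase gene, Slpi (0.037), which encodes a leukocyte protease inhibitor, Serpinb9 (0.042), a granzyme B inhibitor gene, and Rpl26 (0.046), a ribosomal protein gene. Cd274 alone was nearest to Spi1 (0.058), Fermt3 (0.073) and Arhgdib (0.075), 3 genes typical of blood cells. Spi1, which encodes the transcription factor PU.1, stood at 1.98, 1.73 and 2.34 FPKM at 0 nM and at 1.21, 2.39 and 6.34 FPKM at 100 nM, with the same lowest and highest library as Cd274.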

How the data were processed

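Deposited values are FPKM per gene, made by the authors and written to 2 decimals. The tools fastp, HISAT2 and StringTie, and GRCh38 beside mm10, appear in the submitters' processing notes. Versions, annotation and strand setting were not given in the sources used here. Symbols came from GENCODE M21 (GRCm38), where 28350 of 28418 identifiers were found, and coordinates are those of the tables. Low values were within 0.1 of whole multiples of a common step in at most 30.6%, so reads were not recovered and depth is unknown.

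limma 3.58.1 (R 4.3.3) with a mean-variance trend was fitted on log2(FPKM + 1) over genes whose mean reached 1 FPKM, called at an adjusted p under 0.05, with no covariate, and tested on simulated data. Alternatives covered pseudocount, filter, scaling, moderation, library weights, the replicate number as a block, and left-out libraries. The 10 genes and the lists were chosen with earlier results of these data known. From each other list the text names genes past the test, the most abundant at 0 nM and the one with the largest log2 gap between replicate 3 at 100 nM and the other libraries. One gene named by this rule is not reported here. Python 3.11.15 was used for the rest.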

Additional observations from a re-analysis of the deposited data

How the results depend on the processing

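None of the 10 genes was called by limma under any of the 18 alternatives, and of 176 differences recomputed 166 kept their direction. With a mean of at least 5 FPKM required, only 6 of the 10 were tested, as Tap1, Psmb9, Nlrc5 and Cd274 were filtered out. The lowest adjusted p was 0.124, for H2-K1 with the replicate number as a block. The sign turned in 10, for B2m, Psmb8, Nlrc5 and Cd274. Without replicate 3 at 100 nM they were -0.047 for B2m, -0.13 for Psmb8 and -0.055 for Cd274, and without replicate 3 of both groups -0.018 for B2m and -0.069 for Psmb8. Psmb8 was also at -0.032 with library weights (0.596 for replicate 3 at 100 nM) and at -0.013 without replicate 2 at 0 nM. Nlrc5 was at 0.008 without replicate 1 at 0 nM, and at 0.058 and 0.014 without replicate 1 or 2 at 100 nM. With 1 library left out, B2m ranged from -0.047 to 0.065, Psmb8 from -0.13 to 0.14 and Nlrc5 from -0.083 to 0.058. Over the alternatives Cd274 ranged from -0.055 to 0.72 and Psmb9 from 0.033 to 0.38.

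The count of genes changed over the whole table, 487, was 204 with no filter, 294 without the trend, 58 with the replicate block, 122 to 289 when 1 library was left out (each of the 6 moved it by over 1.5 times) and 74 without replicate 3 of both groups. Same-numbered libraries deviated with correlations of -0.03, -0.05 and 0.01 across genes. These show no shared deviation over the whole table, but they cannot settle whether the numbers pair the samples. With depth unknown, only the replicates show how precise a value is.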

Other observations

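Some genes outside the class I pathway in the same chromosome 17 interval were also high in replicate 3 at 100 nM, and are named after their values were seen. That library lay above the mean of the other 5, on the log2(FPKM + 1) scale, by 1.48 for Tnf, the tumour necrosis factor gene, by 1.03 and 0.86 for the heat shock genes Hspa1b and Hspa1a, and by 0.69 for the leukocyte gene Lst1. All 4 exceeded the largest such value among the 7 class I pathway genes there, 0.67 for Psmb9.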
